A study of Mus musculus with 7 samples.

Results

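The genes described here serve the serotonergic, cholinergic and noradrenergic neurons of the brainstem, with Meis2 and Dlk1 added to them. They are 9 of the 55450 genes in the files: Slc6a4, Tph2 and Fev for serotonin, Chat and Slc5a7 for acetylcholine, Dbh and Slc6a2 for noradrenaline, and Meis2 and Dlk1. They were chosen by symbol and with their counts in these libraries in view, since most of them were high in 1 WT library. Their values are therefore given as a description, with no test. The libraries hold polyadenylated RNA from whole cerebella of C57BL/6 pups at postnatal day 15, from 4 mice with 1 knockout allele of L3mbtl3 (L3mbtl3 KO/+) and 3 wild-type (WT) cerebella. The product of L3mbtl3 is a chromatin protein that reads methylated lysines through its MBT domains. The sources used here do not say which part of the gene is deleted or how the cerebella were cut free of the tissue around them. Library totals lay between 29248360 and 39660499 counts in KO/+ and between 36269844 and 43761792 counts in WT, where replicate 3 was the deepest library of all.

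Neurons that make these transmitters have their cell bodies mainly outside the cerebellum and send axons into it. These cell bodies lie in the raphe nuclei (serotonin), the locus coeruleus (noradrenaline) and several cholinergic groups of the midbrain, pons and medulla. The mRNA of a transmitter's enzymes and transporters is found mainly in the cell body. Tph2 encodes the rate-limiting enzyme of serotonin synthesis in neurons, Slc6a4 the transporter that takes serotonin back up, and Fev (Pet1) the ETS-family transcription factor that maintains serotonergic identity. Chat makes acetylcholine and Slc5a7 takes up its precursor choline. Dbh turns dopamine into noradrenaline and Slc6a2 takes noradrenaline back up. Meis2 encodes a homeodomain factor of the TALE class that partners PBX and HOX proteins, and Dlk1 a membrane protein with EGF-like repeats, imprinted and expressed from the paternal allele.

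Of the 3 transmitter groups, the serotonin genes are the one in which WT replicate 3 stood furthest above the next library in summed level, and FEV binds DNA through an ETS domain, whose core motif is GGAA. The 250 bases before the RefSeq start of Slc6a4 (chr11:76998347-76998596, plus strand), Tph2 (chr10:115185023-115185272, minus strand) and Fev (chr1:74885409-74885658, minus strand) are shown 5′ to 3′ on the strand of the gene, from RefSeq on GRCm38.p6, with every GGAA and its reverse complement TTCC in capitals. RefSeq starts differ by a few bases from those of GENCODE given further on, so that the end of the Fev stretch lies inside the GENCODE gene.
Slc6a4: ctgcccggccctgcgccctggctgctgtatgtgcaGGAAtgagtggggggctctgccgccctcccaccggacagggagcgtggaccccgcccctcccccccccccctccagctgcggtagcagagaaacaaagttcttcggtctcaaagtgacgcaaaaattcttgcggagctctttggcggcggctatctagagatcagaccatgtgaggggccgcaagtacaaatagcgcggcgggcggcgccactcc
Tph2: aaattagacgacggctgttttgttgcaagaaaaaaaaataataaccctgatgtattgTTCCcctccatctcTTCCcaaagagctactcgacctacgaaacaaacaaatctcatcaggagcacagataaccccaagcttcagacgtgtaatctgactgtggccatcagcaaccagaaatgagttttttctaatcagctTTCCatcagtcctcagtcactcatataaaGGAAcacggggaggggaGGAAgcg
Fev: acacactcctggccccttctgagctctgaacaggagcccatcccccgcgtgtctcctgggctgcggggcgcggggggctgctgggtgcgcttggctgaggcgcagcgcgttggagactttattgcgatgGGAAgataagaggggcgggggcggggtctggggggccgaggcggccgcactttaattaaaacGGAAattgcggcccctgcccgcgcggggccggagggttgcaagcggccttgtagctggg
The stretches held 1, 5 and 2 matches in that order, and no match overlapped another. A match was found in 93.4% of the 32851 promoters of the same length in the RefSeq table, with a median of 3 matches, and 18.0% held 5 or more. Of the 9 genes, 8 had an entry in that table.

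Slc6a4 was close to 0 in every library but WT replicate 3. Its level, as the read count normalised to library size (CPM), was 0, 0.0257, 0.0589 and 0.0338 in KO/+ replicates 1 to 4, against 0.0262, 0 and 5.40 in WT replicates 1 to 3. These values rest on 0, 1, 2 and 1 counts in KO/+ and on 1, 0 and 231 counts in WT. WT replicate 3 stood 91.7 times above the next library, KO/+ replicate 3, with a 95% interval from counting error alone of 25.1 to 761. The protein-coding transcript Slc6a4-201 took 99.4% of the gene's transcripts in WT replicate 3.

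Tph2 differed in having a low level in all libraries. It had 1.27, 1.05, 1.18 and 0.913 CPM in KO/+, against 0.997, 1.03 and 6.17 CPM in WT replicates 1 to 3. The first 6 of these are nearly level, and WT replicate 3 stood 4.84 times above the highest of them (counting interval 3.51 to 6.83). Without WT replicate 3, the means were 1.10 ± 0.156 CPM in KO/+ (SD, n = 4) and 1.01 ± 0.0221 CPM in WT (SD, n = 2).

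Fev had 0 counts in all 4 KO/+ libraries, against 0, 0 and 13 counts in WT replicates 1 to 3. The 0.304 CPM of WT replicate 3 (counting interval 0.162 to 0.519) was at least 2.99-fold higher than the largest of the levels that 3 counts would give in 1 library, 0.101 CPM in KO/+ replicate 4. The 3 serotonin genes together had 44, 42, 42 and 28 counts in KO/+, against 39, 38 and 508 counts in WT. Outside WT replicate 3, nearly all of these counts were from Tph2.

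The cholinergic pair was split. Chat had 0, 0, 0 and 8 counts in KO/+, against 2, 1 and 27 counts in WT, or 0.270 CPM in KO/+ replicate 4 and 0.631 CPM in WT replicate 3. Chat was thus seen above 2 counts in 2 libraries, 1 of each genotype, and WT replicate 3 stood 2.33 times above KO/+ replicate 4 (counting interval 1.03 to 5.94). Slc5a7 was seen throughout, at 1.24, 1.26, 1.80 and 1.86 CPM in KO/+, against 1.57, 1.00 and 4.04 CPM in WT. WT replicate 3 was 2.17 times above the next library, KO/+ replicate 4 (counting interval 1.60 to 3.00). A transcript with a retained intron, Slc5a7-202, made up 26.7% to 38.7% of the gene's transcripts in KO/+ and 45.4% to 52.2% in WT. These deposited isoform percentages rest on 12.1 to 16.1 estimated counts of Slc5a7-202 in KO/+ and on 26.7, 16.9 and 67.8 in WT. Part of the Slc5a7 counts thus do not come from its coding form. A difference between genotypes in this share was not tested.

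The noradrenergic pair set WT replicate 3 apart least. Dbh had 0, 1, 13 and 2 counts in KO/+, against 4, 2 and 27 counts in WT, and WT replicate 3 was 1.65 times above KO/+ replicate 3 with a counting interval that includes no difference (0.822 to 3.48). Slc6a2 had 0.0868, 0.180, 0.618 and 0.609 CPM in KO/+, against 0.446, 0.568 and 0.701 CPM in WT. Its highest value, in WT replicate 3, was within counting error of KO/+ replicate 3 (ratio 1.13, counting interval 0.628 to 2.08). Phox2a, a transcription factor that noradrenergic neurons need, had 0 or 1 count in each KO/+ library and 1, 0 and 2 counts in WT. Phox2a was thus near 0 in all libraries, while Th and Slc18a2, which noradrenergic neurons also express, were highest in WT replicate 3. There they had 334 and 96 counts, against at most 190 and 11 counts in the other libraries. A noradrenergic source of these levels was not tested.

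Meis2 had the highest level of the 9 genes in WT replicate 3. It stood at 0.810, 3.45, 3.38 and 1.52 CPM in KO/+, against 2.81, 1.92 and 29.6 CPM in WT. WT replicate 3 was 8.60 times above KO/+ replicate 2 (counting interval 7.19 to 10.4), and the other 6 libraries overlapped between genotypes. The coding transcript Meis2-205 made up 0%, 8.74%, 10.98% and 7.72% of the gene's transcripts in KO/+ and 7.30%, 11.06% and 22.78% in WT, while the counts behind these shares lay between 28 and 134 in every library except WT replicate 3, with 1269. Over the 8 genes of the MEIS and PBX list, which is without Meis2, the summed level was 308 to 349 CPM in KO/+ and 310 to 346 CPM in WT, and WT replicate 3 was the lowest WT library. Its relative Meis1 was at 53.0 CPM in WT replicate 3, against 59.3 to 84.2 CPM in the other 6 libraries, so the difference in Meis2 was not one of the whole family.

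Dlk1 stood at 0.318, 0.309, 0.589 and 0.473 CPM in KO/+, against 0.341, 1.35 and 8.18 CPM in WT. It was the one gene of the 9 that was also visibly higher in WT replicate 2 (50 counts), and WT replicate 3 was 6.04 times above that library (counting interval 4.48 to 8.30). In TPM, which also takes in the lengths of its transcripts, the ratio was 2.81, so its size depends on the scale. Dlk1 lies in the imprinted Dlk1-Dio3 region. There Rtl1, also expressed from the paternal allele, had 0 to 0.0676 CPM in KO/+ and 0.0262, 0 and 0.654 CPM in WT. Meg3, the noncoding RNA of the maternal allele, was at 882 to 1210 CPM in KO/+ and 1056, 1073 and 1270 CPM in WT, much closer together than Dlk1 or Rtl1.

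**Figure D1:**
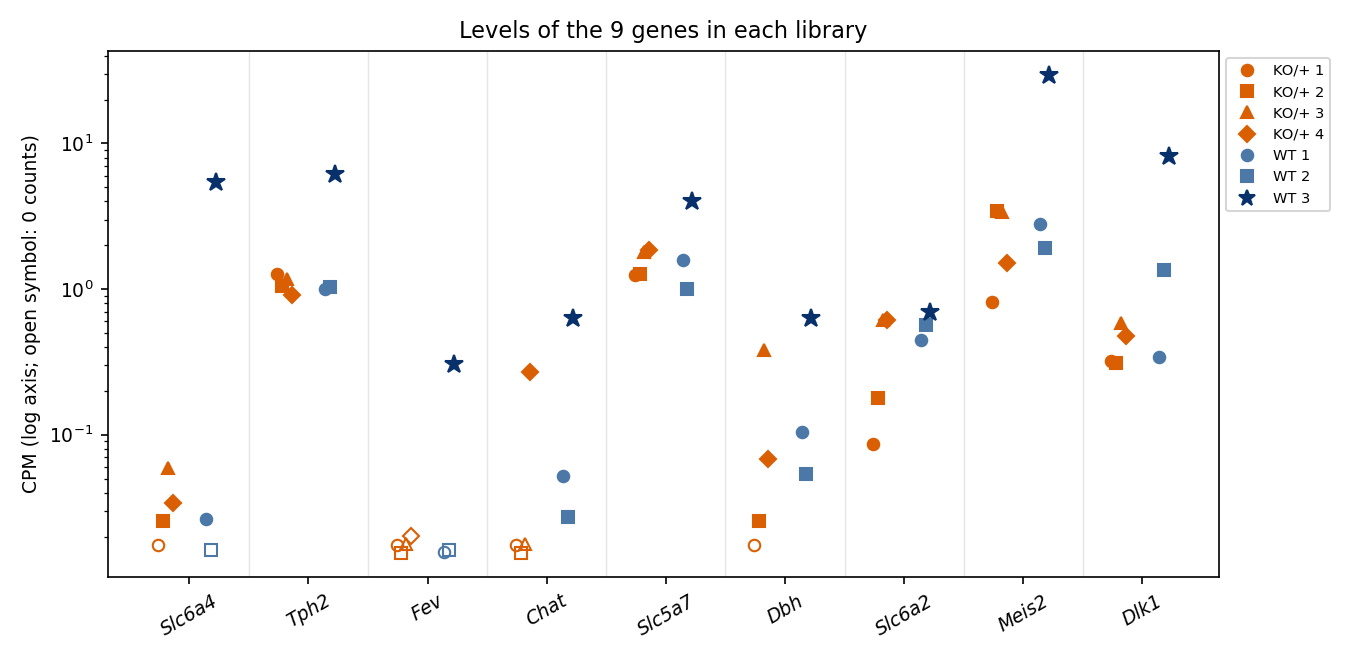
Level of each of the 9 genes in every library, in CPM on a log axis, with KO/+ libraries in orange to the left of WT libraries in blue. The star is WT replicate 3 and open symbols stand for 0 counts. WT replicate 3 is the highest library for all 9 genes, from 1.13 times the next library for Slc6a2 to 91.7 times for Slc6a4.

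Per unit of length, as TPM, the genes of WT replicate 3 ran from Meis2 (16.9), Dlk1 (4.75), Tph2 (4.10) and Slc6a4 (3.44) down to Slc5a7 (1.41), Fev (0.47), Chat (0.45), Dbh (0.43) and Slc6a2 (0.19). Fev, Chat and Dbh rest on 13, 27 and 27 counts there and cannot be put in order at this depth. In KO/+ libraries the TPM of Slc6a4 was at most 0.04, while Tph2 lay between 0.62 and 0.80 and Slc5a7 between 0.39 and 0.63. WT replicates 1 and 2 held Slc6a4 at 0.02 and 0, Tph2 at 0.66 and 0.70 and Slc5a7 at 0.56 and 0.37 TPM. Tph2 and Slc5a7 thus kept a level in all libraries that Slc6a4 did not.

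Of the 9 genes, 5 passed the filter on low counts (Tph2, Slc5a7, Slc6a2, Meis2 and Dlk1), and 4 did not (Slc6a4, Fev, Chat and Dbh). The genes that passed had log2 fold changes of KO/+ over WT of -1.31 for Tph2, -0.53 for Slc5a7, -0.64 for Slc6a2, -2.32 for Meis2 and -2.97 for Dlk1. Without WT replicate 3 the values were 0.13 for Tph2, 0.25 for Slc5a7, -0.47 for Slc6a2, -0.04 for Meis2 and -1.01 for Dlk1. The negative sign of Tph2 and Slc5a7 and the size of the difference in Meis2 and Dlk1 thus rest on that library. In the whole comparison, 0 of 16813 genes (0%) passed an adjusted p of 0.05 by edgeR, with 530 genes under 0.05 before adjustment. DESeq2 called 0 genes too, with 631 under 0.05 before adjustment.

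To see how often a single library stands alone, every gene with at least 20 counts in its highest library was compared between its highest and its next library. Of 16377 such genes, 114 were at least 4 times higher in WT replicate 3 than in any other library, which is 0.696% of them. The same held for 2 (0.0122%), 0 (0%), 1 (0.00611%) and 1 (0.00611%) genes in KO/+ replicates 1 to 4 and for 3 (0.0183%) and 0 (0%) genes in WT replicates 1 and 2. Of the 9 genes, 8 had 20 counts, and 4 were among the 114 (Slc6a4, Tph2, Meis2 and Dlk1), a count fixed by how the genes were chosen. In TPM, Dlk1 would fall short of 4 times. Just inside the limit was Tph2 at 4.84 times the next library, and just outside it was Chat at 2.33 times. Among the 114 genes, 106 code for proteins, a share that was not counted over the 16377 genes. The 114 genes include 12 genes of the lists of other genes described next: Crh, Gata3, Glra1, Htr1a, Lhx9, Pax7, Rtl1, Six3, Slc18a2, Sox14, Tac1 and Tfap2d. Those lists were chosen with earlier results of these data known, so the 12 are a description only.

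**Figure D2:**
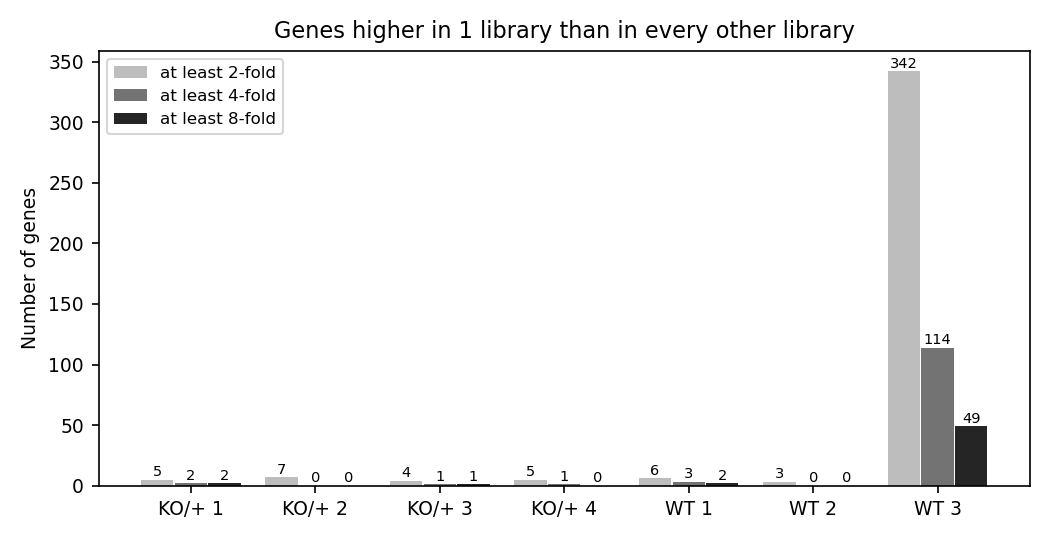
Number of genes that are at least 2, 4 or 8 times higher in the library on the x axis than in any other library, of genes with at least 20 counts in their highest library, with KO/+ libraries left of WT libraries. WT replicate 3 has 342, 114 and 49 such genes, and no other library has more than 7.

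The other genes of serotonergic neurons are the vesicle transporter Slc18a2, the decarboxylase Ddc, and the transcription factors Gata2, Gata3, Lmx1b and others, 9 genes in all. Slc18a2, which also serves noradrenergic and dopaminergic neurons, had 1, 1, 11 and 5 counts in KO/+, against 3, 5 and 96 counts in WT. Gata3 had 0.231, 0.257, 0.0589 and 0.135 CPM in KO/+, against 0.0525, 0.108 and 2.76 CPM in WT, and only WT replicate 3 was outside the range of the rest. Lmx1b, which is needed for serotonergic neurons and is expressed in other neurons too, was at 0.174 to 0.360 CPM in KO/+ and at 0.262, 0.352 and 0.607 CPM in WT. All 9 genes were highest in WT replicate 3. The share of all genes highest in that library was not counted, so such counts, here and for the lists below, are a description only. Of the 6 genes of this list that could be tested, 0 passed the test in either direction. Their median log2 fold change of KO/+ over WT was -0.54, with 0 higher and 6 lower, beside a median of -0.0047 over all genes tested, with 8208 higher and 8602 lower. Without WT replicate 3 the list's median was -0.19, with 2 higher and 4 lower.

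For the cholinergic neurons the list held 10 further genes, of which 5 were tested, 0 higher and 5 lower (median log2 fold change -0.52), and 0 passed. Without WT replicate 3, 6 were tested, 0 higher and 6 lower (median -0.36), and 0 passed. The sign of this list thus did not rest on that library. Slc18a3, the vesicular acetylcholine transporter, lies within the span of Chat on the same strand, and the counting could have split reads between the 2 genes. It had 1, 0, 1 and 11 counts in KO/+, against 0, 1 and 24 counts in WT, with KO/+ replicate 4 and WT replicate 3 above the rest as for Chat. Isl1, a transcription factor of motor neurons and other neurons, had 0, 4, 6 and 0 counts in KO/+, against 19, 11 and 4 counts in WT, and so was not highest where Chat was. Mnx1, a motor neuron factor, had 0 counts in all 7 libraries. Slc10a4 had 4, 0, 7 and 10 counts in KO/+, against 3, 3 and 39 counts in WT. Ecel1 had 12, 31, 42 and 40 counts in KO/+, against 57, 35 and 148 counts in WT. Of the 10 genes of this list, 6 were highest in WT replicate 3, Slc18a3, Slc10a4 and Ecel1 among them.

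The noradrenergic list held 7 further genes, of which 3 were tested and 0 passed, with 0 higher and 3 lower (median -0.18, and 0.15 without WT replicate 3). Th, the rate-limiting enzyme of catecholamine synthesis, which some Purkinje cells also express, was at 3.36, 4.89, 2.30 and 3.14 CPM in KO/+, against 1.73, 2.54 and 7.80 CPM in WT. Its log2 fold change of KO/+ over WT was 0.68 without WT replicate 3, and negative with it. Pnmt, which makes adrenaline, had 0 or 1 count in each KO/+ library and 1, 1 and 2 counts in WT. All 7 genes were highest in WT replicate 3, and 3 of them had at most 3 counts in every library.

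**Figure D3:**
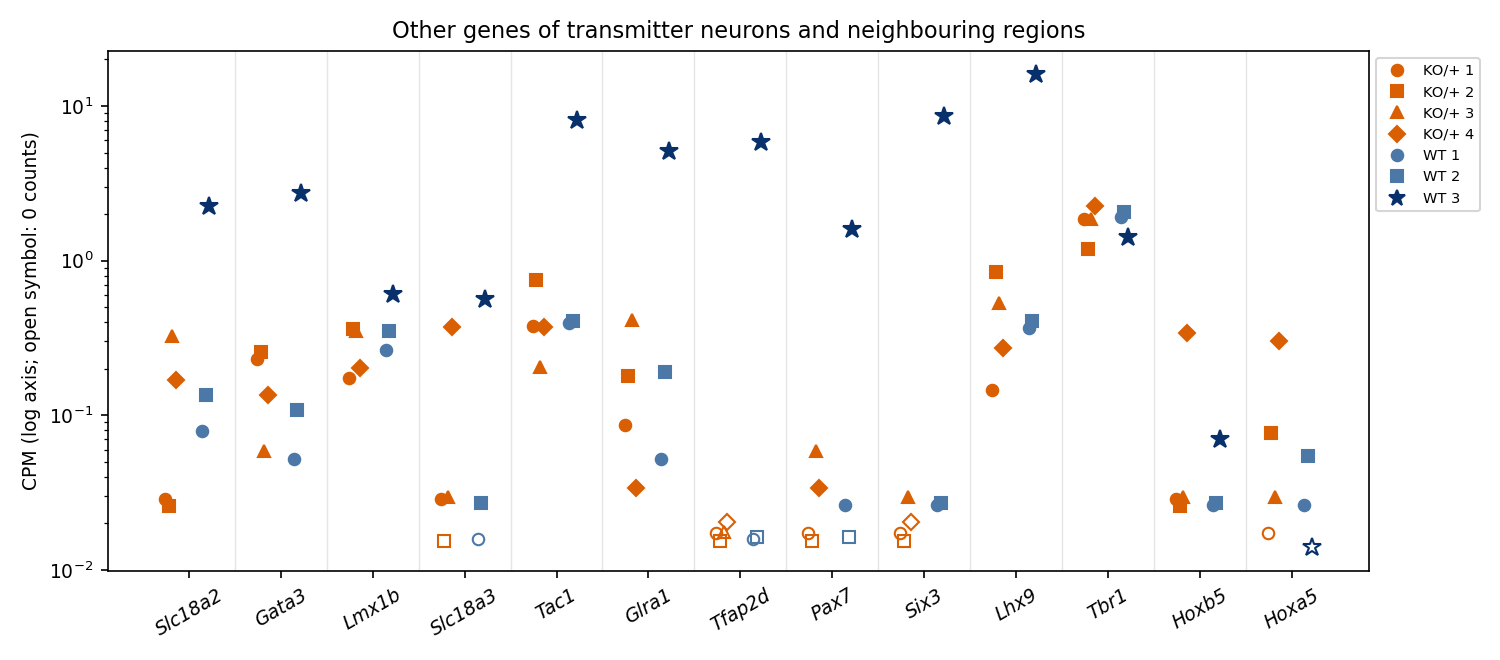
Level in CPM, on a log axis, of 13 genes that are not among the 9, in KO/+ libraries (orange, left) and WT libraries (blue, right), with WT replicate 3 as a star and open symbols for 0 counts. WT replicate 3 stands alone for Six3 (8.55 CPM), Tfap2d (5.82 CPM) and Glra1 (5.12 CPM), while the highest library for Hoxb5 and Hoxa5 is KO/+ replicate 4.

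Receptors for the transmitters sit on the cells that receive these axons, and some also sit on the neurons that release the transmitter. All 13 genes of the serotonin receptor list were highest in WT replicate 3, their summed level being 31.6, 40.0, 43.9 and 29.8 CPM in KO/+, against 27.9, 40.5 and 96.7 CPM in WT. Htr2c, a receptor that choroid plexus and many brainstem and forebrain neurons express, was at 10.5, 14.1, 14.4 and 5.04 CPM in KO/+, against 6.40, 14.1 and 46.5 CPM in WT. Htr1a, the autoreceptor of serotonergic neurons that other neurons carry too, was at 1.41 to 1.75 CPM in KO/+ and at 1.84, 1.33 and 7.92 CPM in WT. Of the 9 serotonin receptor genes tested, 0 passed, with 0 higher and 9 lower (median log2 fold change -0.70), against 5 higher and 4 lower without WT replicate 3 (median 0.088). Of 13 acetylcholine receptor genes tested, 0 passed, with 1 higher and 12 lower (median -0.50), and 5 were higher and 8 lower without that library (median -0.16). The muscarinic receptor gene Chrm2 was at 3.18 to 4.87 CPM in KO/+ and at 4.91, 5.49 and 16.4 CPM in WT. Of 8 adrenergic receptor genes 0 passed, with 2 higher and 6 lower (median -0.074, and 0.13 without WT replicate 3). The 9 genes that break down these transmitters or make their cofactor had a median of 0.055, with 8 higher and 1 lower, and 0 passed. Without WT replicate 3 their median was 0.27, with 9 higher and 0 lower, and 0 passed.

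Over all 20 lists, 133 genes were tested and 0 passed after adjustment over all genes. At an unadjusted p under 0.05 by edgeR, 1 list gene was higher in KO/+, beside 1.25% of all genes tested, and 10 were lower, beside 1.9% of all genes tested. Without WT replicate 3, 134 list genes were tested, with 6 higher, beside 3.17% of all genes tested, and 6 lower, beside 2.58%. The smallest p of the list genes was that of the muscarinic receptor gene Chrm3, at 8.62 ± 0.609 CPM in KO/+ (SD, n = 4) and 11.5 ± 2.11 CPM in WT (SD, n = 3), and its log2 fold change was -0.42 (SE 0.14; adjusted p = 0.957 by edgeR), and -0.26 without WT replicate 3.

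Genes of neighbouring brain regions were compared next, to place the levels of the 9 genes beside those of the tissue around the cerebellum. The midbrain list (8 genes) summed to 0.984, 0.643, 2.80 and 1.89 CPM in KO/+, against 1.29, 1.76 and 10.6 CPM in WT. In it Tfap2d, a transcription factor of the dorsal midbrain, had 0 counts in all KO/+ libraries and 0, 0 and 249 counts in WT, and Pax7, a factor of the dorsal midbrain and other regions, had 0, 0, 2 and 1 counts in KO/+ and 1, 0 and 69 counts in WT. The dopaminergic midbrain genes Slc6a3 and Pitx3 stayed at 10 and 4 counts in WT replicate 3, and Slc6a3 at 7 counts in KO/+ replicate 4.

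The relay and peptide neuron list (10 genes) summed to 134, 147, 157 and 147 CPM in KO/+, against 161, 140 and 293 CPM in WT, and all 10 genes were highest in WT replicate 3. Tac1, the gene of substance P, was at 0.206 to 0.746 CPM in KO/+ and at 0.394, 0.406 and 8.11 CPM in WT. Glra1, the glycine receptor subunit typical of brainstem and spinal cord, was at 0.0338 to 0.412 CPM in KO/+ and at 0.0525, 0.189 and 5.12 CPM in WT. The vesicular glutamate transporter Slc17a6, found in brainstem and in cerebellar nuclei, was at 72.5 to 92.2 CPM in KO/+ and at 99.5, 83.0 and 169 CPM in WT.

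The Hox genes, which mark neurons of the medulla and spinal cord, gave another picture. Their 19 genes summed to 3, 13, 8 and 42 counts in KO/+, against 9, 11 and 16 counts in WT, and 15 of the 19 had at most 3 counts in every library. KO/+ replicate 4, the library with 8 counts of Chat, had the most, among them 10 counts of Hoxb5 and 9 of Hoxa5. The defining genes of the medulla were thus near 0 in WT replicate 3, where those of the midbrain were not. The forebrain list summed to 17.5, 15.1, 22.6 and 22.9 CPM in KO/+, against 23.1, 24.1 and 22.4 CPM in WT, so its sum did not set WT replicate 3 apart. In it Six3, a factor of forebrain and midbrain neurons, had 0, 0, 1 and 0 counts in KO/+ and 1, 1 and 366 counts in WT. The summed level of the pineal list was at most 0.440 CPM in any library. A source in another region and its part in the levels of the 9 genes were not tested, and in whole-tissue RNA more cells of a type and more RNA per cell cannot be told apart.

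**Figure D4:**
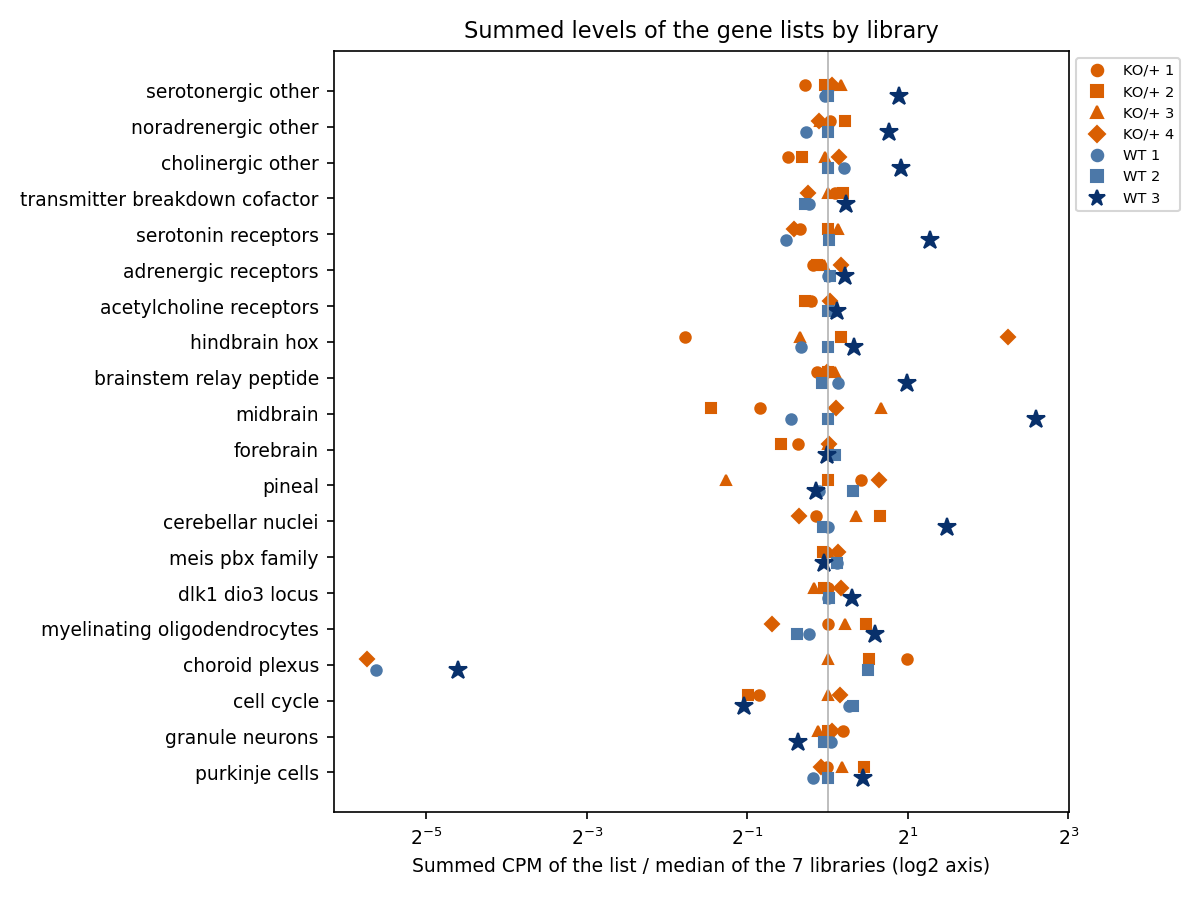
Summed CPM of each list divided by its median over the 7 libraries, on a log2 axis, with KO/+ libraries in orange and WT libraries in blue and WT replicate 3 as a star. The serotonin receptor list lies at 96.7 CPM in WT replicate 3, against 27.9 to 43.9 CPM elsewhere, while choroid plexus genes are high in KO/+ replicates 1 to 3 and WT replicate 2, and cell cycle genes low in KO/+ replicates 1 and 2 and WT replicate 3.

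Marker genes of cells in the cerebellum itself also differed in level between libraries. Granule neuron genes summed to 5182 to 6443 CPM in KO/+ and to 5782, 5469 and 4353 CPM in WT, so WT replicate 3 was the lowest, and Purkinje cell genes to 4060 to 5864 CPM in KO/+ and 3778, 4280 and 5795 CPM in WT. Genes of the cerebellar nuclei summed to 18.2, 31.7, 25.7 and 15.8 CPM in KO/+, against 20.2, 19.5 and 56.6 CPM in WT. Among them Lhx9, which neurons of the thalamus and midbrain express too, was at 0.145, 0.849, 0.530 and 0.270 CPM in KO/+, against 0.367, 0.406 and 16.001 CPM in WT, while Tbr1 was at 1.18 to 2.27 CPM in KO/+ and at 1.92, 2.06 and 1.42 CPM in WT. All 12 myelin genes were highest in WT replicate 3, at 20363 CPM in sum, against 8333 to 18779 CPM in KO/+ and 11551 and 10399 CPM in the other WT libraries. Cell cycle genes summed to 323, 295, 587 and 655 CPM in KO/+, against 705, 731 and 285 CPM in WT. Choroid plexus genes, which the dissection at the roof of the fourth ventricle can include, summed to 1434, 1034, 720 and 13.5 CPM in KO/+, against 14.5, 1022 and 29.4 CPM in WT, so they did not follow the 9 genes. The part of these differences in the levels of the 9 genes was not tested.

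The genes whose pattern over the 7 libraries was most like the mean of the 7 transmitter genes were found by Pearson's r of log2(CPM + 0.1). They are given as a description only, since 1 library carries most of the pattern. In order, these genes were Vgf, Ngb, Gpr149, AW551984, Stc1, Cbln4, Sst, Pax7, Adcy7 and Cpne5, with r between 0.986 and 0.996. Sst, the gene of somatostatin, was at 1.504, 1.70, 2.62 and 3.38 CPM in KO/+, against 2.89, 2.65 and 31.0 CPM in WT. Vgf, which encodes a neuropeptide precursor, was at 23.0 to 29.0 CPM in KO/+ and at 26.5, 25.98 and 65.4 CPM in WT. Of 16369 genes compared, 134 had an r above 0.95, so these names are the top of a long list, and 5 or 6 of the 10 were named again with a pseudocount of 0.01 or 1. Most like Meis2 were Shroom2, Gng7 and the oligodendrocyte lineage gene Sox10, and most like Dlk1 were Gm15853, Lrch1 and Gabrg3. With a pseudocount of 1, only 1 of the 3 names recurred for each, and 175 genes had an r above 0.95 with Meis2 and 37 with Dlk1. Slc6a4 and Tph2 had an r of 0.98 over the 7 libraries and of -0.18 over the 6 without WT replicate 3.

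By position the genes share little. They lie on 8 chromosomes, with Dbh (27165233 to 27183200, plus strand) and Meis2 (115863064 to 116065839, minus strand) both on chromosome 2, in GENCODE M21 on GRCm38. Slc6a4 spans 76998603 to 77032340 on chromosome 11 (plus strand), Tph2 115078641 to 115185022 on chromosome 10 (minus) and Fev 74881509 to 74885419 on chromosome 1 (minus). Chat spans 32408203 to 32465989 on chromosome 14 (minus), Slc5a7 54273590 to 54299034 on chromosome 17 (minus), Slc6a2 92960079 to 93001667 on chromosome 8 (plus) and Dlk1 109452823 to 109463336 on chromosome 12 (plus). The antisense gene Gm12343 over Slc6a4 was at 0 CPM in WT replicate 3, and Gm2990 over Chat at 0.0234 CPM. At most 0.433% of the 50-base windows of the transcripts of any of the 9 genes also occur in another gene. For Slc6a4, Tph2, Fev, Slc5a7, Dbh and Dlk1 the share was 0%. This share counts windows and not reads, and reads from a near-identical copy were not tested.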

How the data were processed

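Polyadenylated RNA of 7 cerebella was sequenced from directional libraries, per the labels' protocols, and the submitters' processing notes name STAR 2.5.2a, RSEM 1.3.1, Trimmomatic 0.39 and bcl2fastq, with mm10/GRCm38. Per the file headers, the authors deposited RSEM expected counts, which estimate the reads of a gene or transcript, the deposited TPM values are scaled by length and library, and the deposited isoform percent is each transcript's share of its gene. The strand setting is not given in the sources used here. A further 6 tables of the whole series were not used.

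Expected counts were rounded. CPM used library totals times TMM factors (0.978 to 1.02). edgeR 4.0.16 (filterByExpr, robust quasi-likelihood test, Benjamini-Hochberg adjustment over all genes, threshold 0.05) compared KO/+ with WT, and p-values measure only the spread between these samples. The standard error (SE) of a log2 fold change is its absolute value divided by the square root of the F statistic of that test. The script was tested on simulated data. Alternatives were DESeq2 1.42.0, RLE scaling, no filter, the replicate number as a block, TPM or CPM without TMM factors, pseudocounts of 0.01 and 1, and leaving out each library. Folds of 2 and 8 and list medians without WT replicate 3 were added later. Counting intervals (95%, exact Poisson or binomial) and the floor of 3 counts per library cover counting error only. The software was SciPy 1.17.1 in Python 3.11.15, and R 4.3.3.

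The 9 genes and the 20 lists were chosen with earlier results of these data known. Besides the 9, the genes named were, of each list, up to 3 with the largest ratio of the highest library to the median (at least 20 counts there) and up to 2 with the smallest p, and the 10 or 3 genes most like the transmitter genes, Meis2 or Dlk1. Other list genes were named after their values were seen. Some list genes are not reported here.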

Additional observations from a re-analysis of the deposited data

Results flagged for a closer look

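In the KO/+ libraries, 80 genes were checked for 1 library far from the other 3, by a limit that chance passes in about 1 of 20 groups, and 6 genes passed it. With 80 genes checked, several would pass it by chance alone. The 3 WT libraries are too few for this check. Chat at 0.270 CPM and Slc18a3 at 0.372 CPM were both high in KO/+ replicate 4, with the other KO/+ libraries at no more than 1 count. Htr6, a serotonin receptor gene, stood at 0.473 CPM in KO/+ replicate 4, against 0.206 CPM or less in the other KO/+ libraries. In KO/+ replicate 3, Chodl was at 0.736 CPM, Crh at 0.0883 CPM and Six3 at 0.0294 CPM, where Crh rests on 3 counts and Six3 on 1 count. No cause was tested for these values.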

How the results depend on the processing

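The number of genes called between KO/+ and WT was 0, with DESeq2, RLE scaling or no filter too, and 0 to 1 when each library was left out in turn. It was 1 with the replicate number as a block (Eif3j2), but same-numbered libraries did not deviate together (correlations 0.085, -0.19 and -0.029), so the number names a library only. It was 1 without KO/+ replicate 4 (Eif3j2), without WT replicate 2 (Wdfy1) and without WT replicate 3 (Fam220a). The log2 fold change of Th, negative in the fit of all libraries, was 0.073 with the block. Leaving out each library in turn gave -0.61 to 0.68 for Th, -0.32 to 0.071 for Cyb561, -0.60 to 0.31 for Adra2a, -3.31 to 0.11 for Tac1, -4.17 to 0.24 for Lhx9 and -0.13 to 0.10 for Rian. The positive value was in each case that without WT replicate 3, and the cause was not tested. At these depths Fev, Chat and Dbh rest on at most 27 counts in any library. Genes at least 8 times higher in 1 library numbered 49 in WT replicate 3 and at most 2 in any other, and at 2 times 342 and at most 7. As TPM, WT replicate 3 stood 6.48 times above the next library for Meis2 and 2.81 times for Dlk1.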

Other observations

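Outside the lists, genes with high levels among the 114 in WT replicate 3 were Rasgrf1 at 308.5 CPM, Nrgn at 128.05 CPM and Tcf7l2 at 49.2 CPM. They were named after their values were seen. Rasgrf1 encodes an exchange factor of RAS, Nrgn the postsynaptic protein neurogranin, and Tcf7l2 a transcription factor of the WNT pathway that marks thalamic and dorsal midbrain neurons.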
